A study of Mus musculus with 7 samples.

Results

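The genes described here carry the signal of the T cell receptor or mark the T cell lineage, and they were read in sinoatrial node tissue of mice. They were chosen by name from a fixed list of 47 symbols, and 46 of them were kept because their comparison was complete and the mean of both libraries reached 1 FPKM (fragments per kilobase of transcript, scaled to the number of mapped fragments). These 46 stand among 13409 genes measured by the same rule. The series has 7 libraries of poly-A RNA from mice of strain Sv129, all 3 weeks after birth, and 2 of them are used here. The control library came from mice with the genotype Baf250af/f, that is with floxed alleles of Baf250a (symbol Arid1a, which encodes a DNA-binding subunit of BAF, a complex that moves nucleosomes) and no Cre. The Cre library came from Baf250af/f;Hcn4CreERT2 mice, sampled 6 days after tamoxifen, in which a tamoxifen-dependent recombinase is made where the pacemaker channel gene Hcn4 is active. Both genotypes share the floxed alleles. The labels do not state how many mice were pooled per library, their sex, or whether the control mice received tamoxifen. With 1 library per genotype there was no test, and each difference below compares these libraries and not the genotypes.

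The T cell receptor recognises peptides but has no enzyme activity of its own. Its CD3 and zeta chains carry tyrosine motifs that the kinase Lck phosphorylates, and the kinase Zap70 then binds them and phosphorylates the adaptors Lat and Lcp2, from which calcium, Ras and protein kinase C signals start. The coreceptors Cd4 and Cd8 bring Lck to the receptor, and in the thymus developing cells carry both coreceptors before they keep 1 of them. Transcription factors such as Tcf7, Bcl11b and Satb1 set up and hold the T cell programme. None of these genes is a known marker of pacemaker cells, although several of them are also used in other blood cells, fibroblasts, vessels or nerve.

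The libraries differed in features besides the genotype. Arid1a had 34.9 FPKM in the control against 12.3 FPKM with Cre, a value that also covers exons outside the floxed part. Xist had 0.379 and 93.2 FPKM and the Y-linked gene Eif2s3y had 85.8 and 0.118 FPKM, so sex and genotype cannot be told apart. Cardiac muscle genes were abundant in both libraries (12 measured genes of 14 listed, summing to 16612 and 24994 FPKM), while the pacemaker channel gene Hcn4, at 0.605 and 0.719 FPKM, was below the minimum. The listed cardiac genes Myh6 and Nppa had an incomplete comparison and are not in these sums. The deposited table gives no counts, but FPKM times transcript length of weakly expressed genes fell on whole steps. Within 0.1 of a step lay 65.9% of 129 weak genes in the control library and 63.5% of 159 in the Cre library, where that window covers 20% of the range. The step was chosen to fit these same genes, so the shares are not an independent check of it. The steps put 1 fragment at 0.0182 FPKM-kilobases in the control and 0.0149 in the Cre library, or about 54900000 and 67000000 fragments. Fragment numbers below are estimates from these steps and from transcript lengths of a newer annotation. Their 95% intervals (exact binomial) cover counting error only.

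Upstream sequence is shown for genes of the receptor, a coreceptor and the first kinases, because these genes were low together in the Cre library, and for Fyn, which kept a level there. RefSeq start sites of build GRCm38.p6 were at hand for 34 of the 46 genes (52 start sites), and each sequence is the 250 bases before a start, 5′ to 3′. Capitals mark matches on either strand to TGTGGT (a RUNX core), GGAAGT (ETS), CTTTGA (TCF and LEF), CAGNTG (an E-box) or TATAAA. The windows are Cd3g at chr9:44980432-44980681 (minus strand), Cd3d at chr9:44981536-44981785 (plus), Cd3e at chr9:45009612-45009861 (minus), Cd247 at chr1:165788431-165788680 (plus) and Ptcra at chr17:46763713-46763962 (minus). Cd8a is at chr6:71373177-71373426 (plus), the downstream and upstream starts of Lck at chr4:129558373-129558622 and chr4:129573642-129573891 (both minus), and Fyn at chr10:39369549-39369798 (plus).
Cd3g: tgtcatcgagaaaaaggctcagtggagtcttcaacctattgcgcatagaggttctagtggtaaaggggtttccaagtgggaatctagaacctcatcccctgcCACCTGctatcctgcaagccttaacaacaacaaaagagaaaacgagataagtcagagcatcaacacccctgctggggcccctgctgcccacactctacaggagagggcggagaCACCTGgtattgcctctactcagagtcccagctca
Cd3d: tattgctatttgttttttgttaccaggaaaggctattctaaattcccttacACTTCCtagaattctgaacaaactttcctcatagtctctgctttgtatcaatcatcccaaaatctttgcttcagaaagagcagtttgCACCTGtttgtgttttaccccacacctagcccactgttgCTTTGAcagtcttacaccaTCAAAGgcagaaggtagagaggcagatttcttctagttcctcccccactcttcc
Cd3e: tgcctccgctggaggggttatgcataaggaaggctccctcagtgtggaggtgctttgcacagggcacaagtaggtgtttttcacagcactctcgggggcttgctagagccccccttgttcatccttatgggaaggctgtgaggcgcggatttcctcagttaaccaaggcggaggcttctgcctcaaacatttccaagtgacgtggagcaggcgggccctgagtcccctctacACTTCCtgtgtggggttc
Cd247: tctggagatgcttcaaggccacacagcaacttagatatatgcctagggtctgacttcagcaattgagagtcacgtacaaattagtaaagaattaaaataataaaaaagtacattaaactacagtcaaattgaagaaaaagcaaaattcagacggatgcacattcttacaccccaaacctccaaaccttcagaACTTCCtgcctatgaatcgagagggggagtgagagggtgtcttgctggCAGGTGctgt
Ptcra: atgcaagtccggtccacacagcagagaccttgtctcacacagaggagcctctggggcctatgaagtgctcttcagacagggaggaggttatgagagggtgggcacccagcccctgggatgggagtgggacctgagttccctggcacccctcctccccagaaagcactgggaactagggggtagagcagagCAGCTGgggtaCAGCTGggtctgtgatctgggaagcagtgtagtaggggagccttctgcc
Cd8a: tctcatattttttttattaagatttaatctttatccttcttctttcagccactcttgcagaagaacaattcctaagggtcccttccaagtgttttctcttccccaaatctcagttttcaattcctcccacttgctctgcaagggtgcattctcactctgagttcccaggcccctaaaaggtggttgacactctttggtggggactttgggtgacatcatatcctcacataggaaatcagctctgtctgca
Lck, downstream start: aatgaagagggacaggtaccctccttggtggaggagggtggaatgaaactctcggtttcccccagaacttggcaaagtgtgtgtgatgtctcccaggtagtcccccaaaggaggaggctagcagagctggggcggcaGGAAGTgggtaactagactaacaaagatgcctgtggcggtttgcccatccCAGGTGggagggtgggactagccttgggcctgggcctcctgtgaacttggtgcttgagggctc
Lck, upstream start: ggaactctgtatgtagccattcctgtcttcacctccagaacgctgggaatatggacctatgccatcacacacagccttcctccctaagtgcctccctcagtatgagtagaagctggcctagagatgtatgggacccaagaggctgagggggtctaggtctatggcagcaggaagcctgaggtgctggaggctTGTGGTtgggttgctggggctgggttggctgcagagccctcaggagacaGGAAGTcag
Fyn: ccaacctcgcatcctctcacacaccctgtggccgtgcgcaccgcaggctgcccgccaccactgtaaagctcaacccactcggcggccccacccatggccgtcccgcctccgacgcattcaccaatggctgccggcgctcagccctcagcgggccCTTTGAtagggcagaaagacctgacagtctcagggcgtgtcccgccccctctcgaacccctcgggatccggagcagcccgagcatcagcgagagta

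The windows of Cd3d and Cd8a hold no CpG dinucleotide, that of Ptcra holds 1 and that of Fyn holds 21. Those of Cd247, Cd3g and Cd3e hold 3, 4 and 7, and the downstream and upstream windows of Lck 3 and 1. Members that were far lower with Cre than Fyn also had such windows, with 21 for Rasgrp1, 30 for Prkcq and 37 in 1 window of Tcf7. Runx1 and Itpkb, which kept more, had 27 and 2 in the windows of Runx1 and 4 in that of Itpkb. An observed to expected CpG ratio below 0.6 was found in 24 of 25 windows of members used mainly by T and NK cells (19 genes), in 8 of 12 windows of members used by leukocytes in general and in 9 of 15 windows of members also used outside blood. The same held for 37.8% of 12167 windows of all measured genes and for 66.0% of all 32851 windows. The ETS letters stood in 20 of 52 member windows (38.5%) and in 22.2% of windows of measured genes. The RUNX letters stood in 7 member windows (13.5% against 10.7%), the TCF and LEF letters in 11 (21.2% against 10.6%), an E-box in 22 (42.3% against 39.1%) and TATAAA in 5 (9.62% against 6.80%). Ptcra has E-boxes from -60 to -55 and from -49 to -44 before its start, and the Cd8a window holds none of these letters. Matches describe the letters only. Several windows belong to the same gene, and some of these overlap, so that 1 site can count in more than 1 window. The bases after the start were found in a GENCODE transcript of the gene for 41 of the 52 windows, and chromosome 18 was left out. The FPKM of a gene such as Lck, known for a pair of promoters, does not say which start was used.

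All 46 genes were lower in the Cre library than in the control library, and 44 of them were at least 2-fold lower on the scale of FPKM + 1 (a pseudocount of 1 FPKM, which understates the difference of weak genes). Of all measured genes 10.4% were at least 2-fold lower, and 6.08% were at least 2-fold higher, as no member was. The median log2 ratio of the members was -4.98, from -7.81 for Cd8b1 to -0.82 for Fyn, and that of all measured genes was -0.07. Levels of the members in the control library ran from 9.88 to 417 FPKM with a median of 47.0 FPKM, and in the Cre library from 0.0116 to 11.5 FPKM with a median of 0.620 FPKM. Together they made up 0.956% of the FPKM of all genes with a complete comparison in the control and 0.0186% in the Cre library. In 28 members the Cre level was below 1 FPKM, so these passed the minimum through their control level and had to differ. The counts of lower genes by role below include them, and stand beside the 10.4% of all measured genes. At least 1 FPKM with Cre was reached by 1 of 5 receptor chains, 0 of 3 coreceptors and 3 of 8 accessory surface genes. The same held for 2 of 6 kinases, 3 of 9 adaptors, 4 of 6 effectors and 5 of 9 transcription factors. Runx3 was the symbol that missed the minimum, at 1.09 and 0.126 FPKM, and Ptcra, at 9.88 and 0.0116 FPKM, had the lowest mean inside it. On the 2-fold scale Itpkb lay just inside, at -1.13, and Runx1 and Fyn just outside, at -0.85 and -0.82. In bulk tissue, fewer cells of a type and less RNA per cell cannot be told apart.

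**Figure D1:**
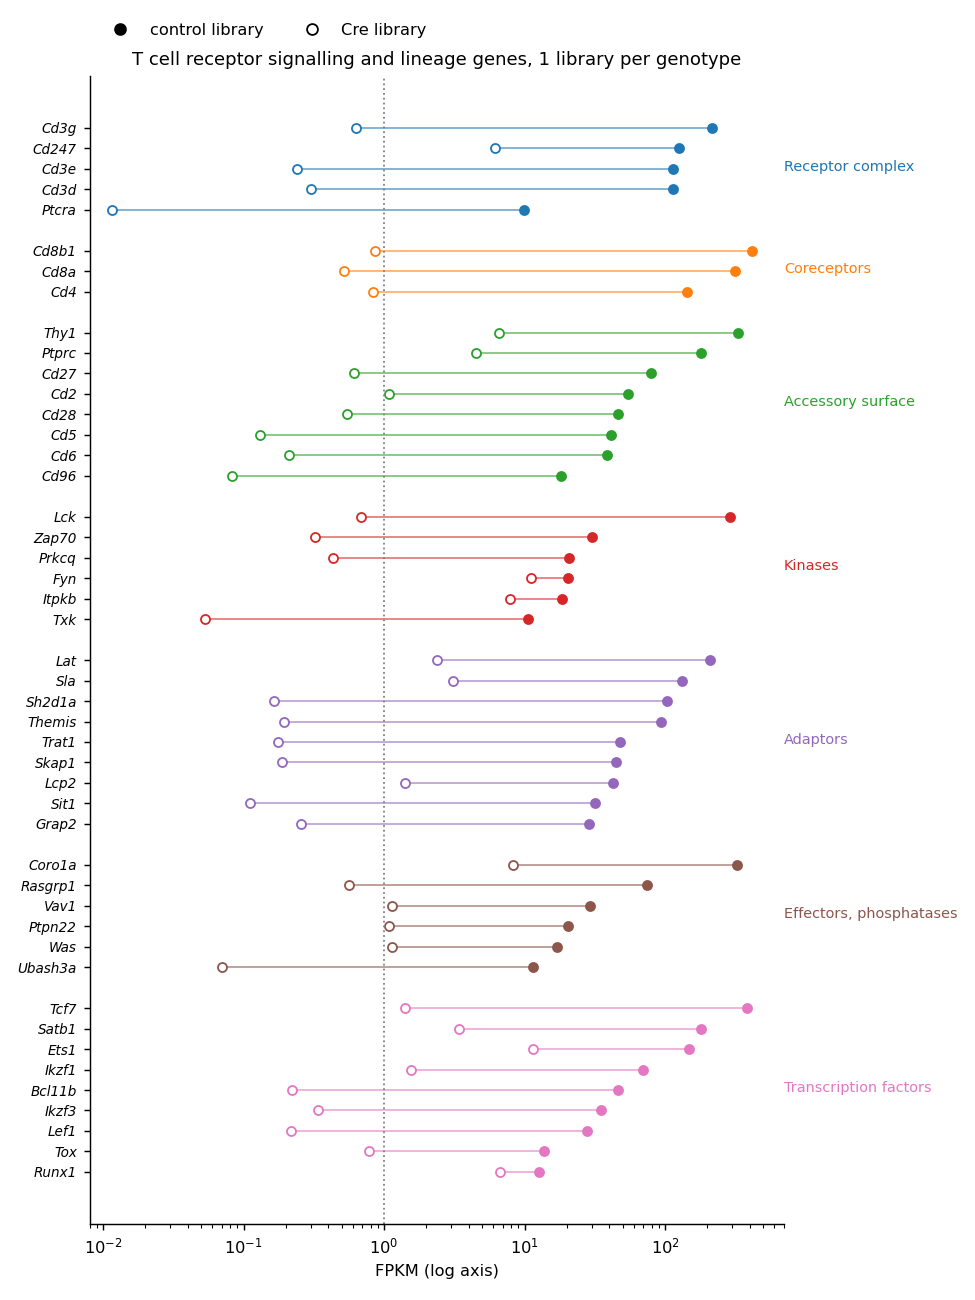
FPKM (log axis) of the 46 genes in the control library (filled points) and the Cre library (open points), grouped by role, with 1 library per genotype and a dotted line at 1 FPKM. The open points lie left of the filled points in every row, by 850-fold for Ptcra and by 1.84-fold for Fyn.

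The chains of the receptor complex were 5 of 5 lower. Cd3g, Cd3d and Cd3e encode the CD3 chains, each with a tyrosine motif for Zap70. Cd3g had 214 FPKM in the control library against 0.627 FPKM with Cre, a log2 ratio of -7.05. Cd3d had 113 and 0.303 FPKM, a ratio of -6.46, and Cd3e had 113 and 0.239 FPKM, a ratio of -6.53. In the Cre library these values rest on an estimated 43, 33 and 23 fragments, against 12040, 10065 and 9102 in the control. The share of the control level that was left was 0.292% for Cd3g (interval 0.212 to 0.394%), 0.267% for Cd3d (0.185 to 0.378%) and 0.211% for Cd3e (0.131 to 0.311%), and these intervals overlap.

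Cd247, which encodes the zeta chain of the same receptor, kept more. Its control level was 126 FPKM, close to Cd3d and Cd3e, and 6.12 FPKM in the Cre library, where an estimated 668 fragments remained. The share left was 4.87% (4.50 to 5.26%), an interval apart from those of the CD3 chains, so Cd247 had 1.11 times the level of Cd3e in the control library and 25.6 times in the Cre library. NK cells also use Cd247. The NK and cytotoxic genes measured here (4 of 12 listed) were 4 of 4 at least 2-fold lower, and their summed level was 50.1 FPKM in the control against 1.09 FPKM with Cre; which cells the remaining Cd247 came from was not tested. Ptcra, the stand-in alpha chain of immature thymocytes, had 9.88 and 0.0116 FPKM, and its ratio of -3.43 is set by the pseudocount. Its Cre level amounts to an estimated 1 fragment against 696 in the control, so the share left was 0.118% with an interval of 0.00298 to 0.658%.

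The coreceptors were 3 of 3 lower, all with Cre levels below 1 FPKM, and had the lowest median log2 ratio of any role, -7.69. Even so, Cd4 lay above 3 receptor chains, Lck, Tcf7 and Sh2d1a. Cd8a and Cd8b1 form the Cd8 dimer of cytotoxic T cells and of thymocytes. Cd8b1 was the highest of all members in the control library at 417 FPKM and had 0.864 FPKM in the Cre library, while Cd8a had 314 and 0.521 FPKM. Counted from the lowest ratio of all measured genes, Cd8b1 had rank 2, at -7.81, and Cd8a rank 4, at -7.69. Cd4, the coreceptor of helper T cells, had 144 and 0.829 FPKM, a ratio of -6.31. The share left was 0.577% for Cd4 (0.495 to 0.672%), above 0.166% for Cd8a (0.136 to 0.200%) and 0.207% for Cd8b1 (0.166 to 0.257%) beyond counting error. Cd8a therefore had 2.18 times the level of Cd4 in the control library and 0.628 times in the Cre library, all of it below 1 FPKM.

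Surface proteins that adjust receptor signalling were 8 of 8 lower, with a median of -5.03. Thy1, a surface glycoprotein of T cells that fibroblasts and neurons also carry, had 329 and 6.62 FPKM, and Ptprc, the CD45 phosphatase of all white blood cells, had 179 and 4.52 FPKM. These had the highest Cre levels of the group, at 2.01% and 2.53% of the control. Cd27 and Cd28, costimulatory receptors, had control levels of 79.7 and 46.5 FPKM and Cre levels of 0.614 and 0.546 FPKM. Cd27 shares its locus in the table with Tapbpl, which had 17.5 and 6.10 FPKM, so reads may have been divided between them. Cd2, an adhesion receptor, had 54.5 and 1.08 FPKM and kept 1.99%. Cd5 and Cd6, related scavenger-type receptors that dampen the signal, had control levels of 41.1 and 38.8 FPKM and Cre levels of 0.130 and 0.211 FPKM. Cd96 was the weakest of the group, at 18.03 and 0.0820 FPKM, with an estimated 12 fragments left.

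The kinases covered nearly the whole range of the members, and 5 of 6 were lower by 2-fold or more. Lck, which starts the cascade, had 290.2 FPKM in the control against 0.682 FPKM with Cre, a log2 ratio of -7.44. Fyn, the related Src kinase that many tissues express, had 20.5 and 11.2 FPKM, a ratio of -0.82. The share left was 0.235% for Lck (0.191 to 0.288%) and 54.5% for Fyn (51.3 to 57.8%), so that Lck had 14.2 times the level of Fyn in the control library and 0.0610 times in the Cre library. Zap70 had 30.0 and 0.322 FPKM and kept 1.07%. The Tec kinase Txk had 10.5 and 0.0531 FPKM, and an estimated 8 fragments were left. Prkcq, the protein kinase C theta that skeletal muscle also expresses, had 20.7 and 0.432 FPKM and kept 2.09%. Itpkb, an inositol trisphosphate kinase of the calcium branch, had 18.5 and 7.87 FPKM and kept 42.6%, and its ratio of -1.13 became -0.93 when both libraries were set to the same upper quartile.

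Adaptors were 9 of 9 lower, with a median of -5.28. Lat, the membrane scaffold of the cascade, had 209.6 and 2.39 FPKM, and its partner Lcp2 had 42.7 and 1.40 FPKM. Lat kept 1.14% (0.988 to 1.31%) and Lcp2, which other blood cells use as well, kept 3.27% (2.93 to 3.64%), so the ratio of Lat to Lcp2 was 4.91 in the control and 1.71 in the Cre library. Grap2, the adaptor that joins them, had 28.7 and 0.255 FPKM. Sh2d1a, an X-linked adaptor of the Slam receptors, had 103 and 0.164 FPKM, which is an estimated 10 fragments in the Cre library and a share of 0.159%. Themis, needed for selection of thymocytes, had 93.1 and 0.195 FPKM and kept 0.209%. Trat1 and Sit1, transmembrane adaptors, had control levels of 47.4 and 31.6 FPKM and Cre levels of 0.174 and 0.112 FPKM, and Skap1, an adaptor that links the receptor to integrins, had 45.04 and 0.188 FPKM. Sla, a Src-like adaptor that lowers receptor levels, had 132 and 3.11 FPKM, the highest Cre level of the group. Sla lies inside the locus of Tg in the table, and Tg had 0.380 and 0.417 FPKM.

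Effectors and phosphatases were 6 of 6 lower, with a median of -3.69. Coro1a, an actin-binding protein of leukocytes, had 326 FPKM in the control against 8.28 FPKM with Cre and kept 2.54%. Rasgrp1, which activates Ras in T cells, had 74.4 and 0.558 FPKM and kept 0.750%. Vav1, the exchange factor for Rac, had 29.2 and 1.13 FPKM, and Was, the X-linked actin regulator of blood cells, had 16.9 and 1.13 FPKM. The phosphatase Ptpn22 had 20.4 and 1.08 FPKM, and Ubash3a, a T cell protein that restrains the signal, had 11.5 and 0.0707 FPKM. Was, Ptpn22 and Vav1, which other blood cells use as well, kept 6.70%, 5.27% and 3.88%, and Ubash3a kept 0.612%.

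Transcription factors were 8 of 9 lower by 2-fold or more, with a median of -4.74. Tcf7, the factor that starts T cell specification, had 384 FPKM in the control against 1.41 FPKM with Cre, a ratio of -7.32, and its relative Lef1 had 27.7 and 0.218 FPKM. Bcl11b, which fixes T cell commitment, had 45.9 and 0.221 FPKM. Satb1, a genome organiser abundant in thymocytes, had 180.0 and 3.40 FPKM. Ikzf1 and Ikzf3, zinc finger factors of lymphocytes, had control levels of 70.1 and 34.9 FPKM and Cre levels of 1.55 and 0.338 FPKM. Tox, which acts in selection of Cd4 cells, had 13.6 and 0.779 FPKM. Ets1, a factor of lymphocytes and endothelium, had 148 and 11.5 FPKM, the highest Cre level of all members, and kept 7.80% (7.40 to 8.22%). Runx1, needed in blood stem cells and thymocytes, had 12.8 and 6.63 FPKM and kept 52.0%, a ratio of -0.85. The letters of an E-box, and none of the other motifs, stand before the upstream start of Runx1.

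**Figure D2:**
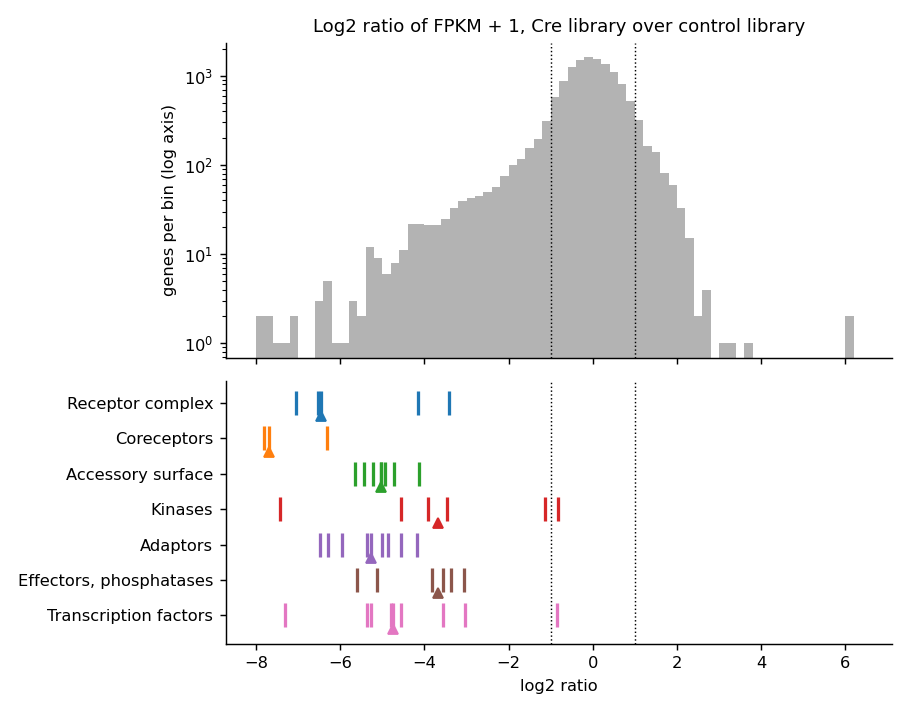
Upper panel: number of genes (log axis) by log2 ratio of FPKM + 1, Cre library over control library, for 13409 measured genes. Lower panel: each of the 46 members as a tick by role, with the group's median as a triangle and dotted lines at 2-fold. The members lie in the long lower tail, with medians from -7.69 for the coreceptors to -3.69 for the kinases and for the effectors, and Fyn and Runx1 lie inside the dotted lines.

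A level of at least 1 FPKM in the Cre library was kept by 18 of 46 members (39.1%), where 96.4% of all measured genes reached it. The members were divided by where each gene is usually expressed. The division was made from textbook knowledge and not from these data, and genes such as Cd4, Rasgrp1 or Bcl11b could be placed otherwise. Of 25 genes used mainly by T and NK cells 4 were still present, namely Cd247, Lat, Tcf7 and Cd2. Of 11 genes used by leukocytes in general 8 were present, which were Coro1a, Ptprc, Sla, Ikzf1, Lcp2, Vav1, Was and Ptpn22. Of 10 genes also used outside blood 6 were present, which were Ets1, Fyn, Itpkb, Runx1, Thy1 and Satb1. A level of at least 5 FPKM was kept by 7 members, namely Ets1, Fyn, Coro1a, Itpkb, Runx1, Thy1 and Cd247. These were 1 of 25, 1 of 11 and 5 of 10 genes of the sets in the same order. The cut was on FPKM and not on fragments. Cd2, at 1.08 FPKM, rests on an estimated 84 fragments, while Cd8a and Cd28, below 1 FPKM, rest on 109 and 159. Ptpn22, Was and Vav1, at 1.08, 1.13 and 1.13 FPKM, also lay just above the cut.

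The share of the control level that was left had a median of 0.368% in the T and NK cell genes, from 0.118 to 4.87%. It had a median of 2.53% in the leukocyte genes, from 0.577 to 6.70%, and of 3.90% in the genes used more widely, from 0.481 to 54.5%. The ranges of the sets overlap. Less than 1% was left of 20 of the 25 T and NK cell genes, of 3 of the 11 leukocyte genes and of 2 of the 10 wider genes, and of 0.544% of all measured genes. Within the T and NK cell set the order of levels was partly kept, with a Spearman correlation of 0.772 between control and Cre FPKM across 25 genes, which share both libraries and are not replicates. It was 0.509 across the 11 leukocyte genes and -0.09 across the 10 wider genes.

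**Figure D3:**
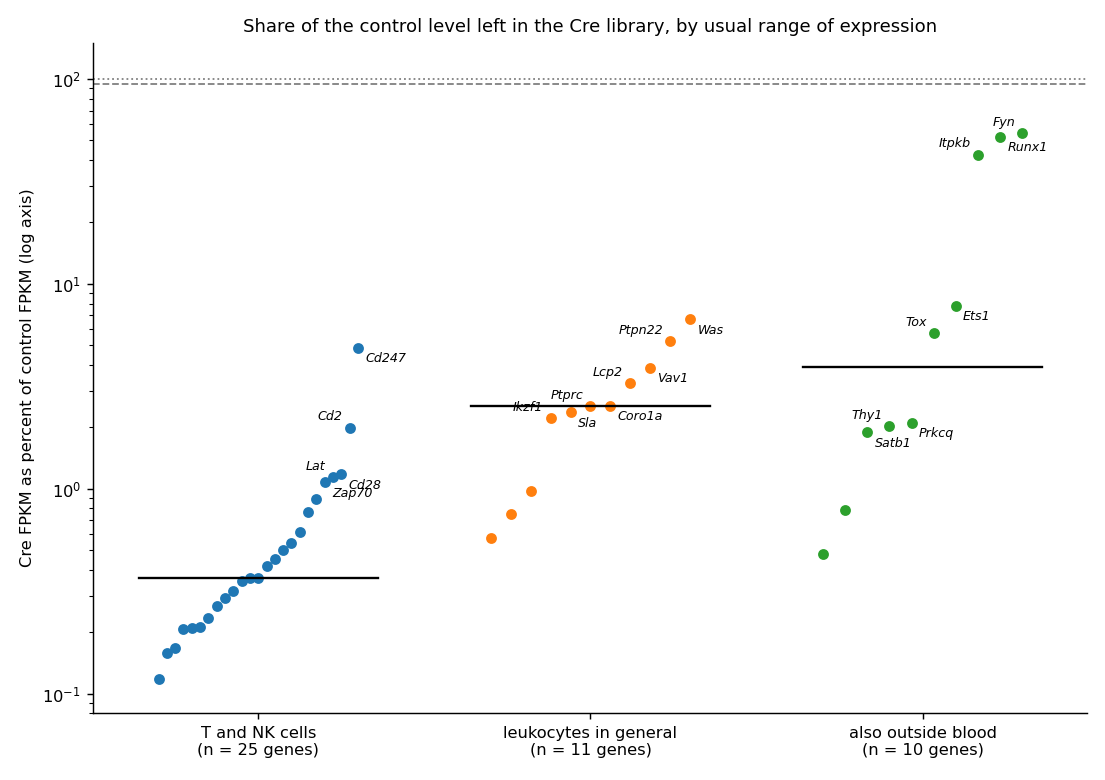
Cre FPKM as a percentage of control FPKM (log axis) for 46 genes in 3 sets by usual range of expression, each point 1 gene, with the set's median as a bar. The dotted line is 100% and the dashed line the median of all measured genes, 94.5%. Cd247 stands above the other T and NK cell genes, and Fyn, Runx1 and Itpkb lie closest to the lines.

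Several members are neighbours in the genome, here in mm9 coordinates as deposited. Cd3g, Cd3d and Cd3e lie within 40.0 kb on chromosome 9 (44777654 to 44817673), and Cd8b1 and Cd8a within 56.4 kb on chromosome 6 (71272805 to 71329165). Cd5 and Cd6 lie within 112 kb on chromosome 19 (10792632 to 10904548). Genes around these clusters were read after the values were seen. Within 100 kb of the Cd3 genes 5 other genes were measured, with log2 ratios between -1.04 and 0.07. Mpzl2, next to Cd3e, had 9.34 and 9.89 FPKM, and Ube4a, next to Cd3g, had 24.4 and 16.9 FPKM. Around the Cd8 genes 3 others were measured, from -2.92 for Rmnd5a, at 192 and 24.5 FPKM, to 0.89 for the muscle gene Smyd1. Around Cd5 and Cd6 there were 7, from -1.67 to 0.81. Wider stretches hold Cd4 and Cd27 (375 kb of chromosome 6, 27 other genes measured) and Coro1a and Lat (341 kb of chromosome 7, 21 others). The lowest neighbours there were the cell cycle gene Cdca3, at 52.4 and 1.89 FPKM, and Gdpd3, at 36.1 and 1.019 FPKM, with ratios of -4.21 and -4.20. The neighbours' medians lay between -0.51 and -0.04 in the 5 stretches, and each measured neighbour had a higher ratio than the members it lies beside. At least 2-fold lower were 1 of 5 neighbours around Cd3, 1 of 3 around Cd8 and 1 of 7 around Cd5 and Cd6. The same held for 8 of 27 around Cd4 and Cd27, where 2 were higher, and for 3 of 21 around Coro1a and Lat. These counts stand beside 10.4% of all measured genes.

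By the authors' deposited table, of the 46 members 22 were called significant, all of them lower in the Cre library, where 0.671% of all measured genes were called in either direction and 0.656% were called lower. The members made up 22 of those 88 calls. Called were 3 of 3 coreceptors, 6 of 9 transcription factors, 8 of 21 signalling genes, 4 of 8 accessory surface genes and, of the receptor chains, Cd247 alone. The CD3 chains were not called although their ratios were lower, with q-values in the authors' deposited table of 0.145 for Cd3d, 0.133 for Cd3e and 0.0756 for Cd3g. Cd247 had a q-value of 0.0305 there. Sh2d1a and Ptcra had q-values of 0.639 and 0.999 in the authors' deposited table, beside estimated Cre levels of 10 fragments and 1 fragment. Cd27 had a q-value of 0.999 there, in a shared locus. Sla, also in a shared locus, was called. Lcp2 and Ptpn22, with an estimated 341 and 198 Cre fragments, were not called, while Cd6 and Themis, with 40 and 66, were. Why calls were missing was not tested, and a missing call was not read as an equal level.

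The rest of the pathway was read from lists of genes that are not members. Of 22 measured pathway genes used mainly by leukocytes (24 listed), 19 were at least 2-fold lower and 0 higher, with a median log2 ratio of -2.33. The phosphatase Ptpn7 had 36.3 and 0.557 FPKM, the atypical GTPase Rhoh 27.4 and 0.343 FPKM, and the GTPase Rac2 had 76.5 and 3.09 FPKM. Of 43 measured pathway genes that most tissues express (44 listed), 4 were lower and 0 higher, with a median of -0.35. The lower ones were the ubiquitin ligase Cbl at 44.4 and 4.26 FPKM, the calcium-regulated factor Nfatc3 at 70.4 and 9.35 FPKM, Csk, the kinase that holds Lck back, at 35.6 and 8.05 FPKM, and the adaptor Nck2 at 20.8 and 6.42 FPKM. These 4 of 43 stand beside the 10.4% of all genes that were lower. Of 15 measured genes that receptor signals induce (20 listed), 7 were lower, with a median of -0.83. They included Cd69, a surface marker of recent activation, at 17.4 and 0.1197 FPKM, Cd83 at 20.5 and 1.95 FPKM, the inhibitor Tnfaip3 at 15.0 and 1.62 FPKM, and Il2ra at 3.88 and 0.232 FPKM. Above equal levels lay 5 of the 15, none by 2-fold, and they are named after their values were seen. Fos, an early target of the signal, had 4.11 and 9.08 FPKM, a ratio of 0.98, and Nr4a2 had 0.858 and 1.92 FPKM, a ratio of 0.65. Jun, Junb and Irf4 had ratios of 0.23, 0.05 and 0.03.

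Many, but not all, markers of thymic tissue and the markers of dividing cells were lower as the members were, and their part in the result was not tested. Of 25 measured thymocyte stage genes 14 were lower, with sums of 1532 FPKM in the control against 390.4 FPKM with Cre. The 4 genes with the lowest ratios were Rag1, Dntt, Ccr9 and Rag2, which mark immature thymocytes. Their shares left were 0.191%, 0.171%, 0.250% and 0.226%, within the range of the T and NK cell members. Above equal levels lay 5 of the 25, none of them by 2-fold, and they are named after their values were seen. They were Cd24a at 97.7 and 127.6 FPKM, S1pr1 at 18.1 and 28.0 FPKM, and Cd44 at 7.29 and 11.9 FPKM. Kit had 1.57 and 2.75 FPKM, and Zbtb7b had 9.30 and 10.6 FPKM. Kit is also on the mast cell list, whose 6 measured genes all lay above equal levels. Which cells the levels of these 5 genes came from was not tested. Of 11 measured thymic epithelium genes 6 were lower, with sums of 1186 and 357 FPKM. Its defining factor Foxn1 had 2.34 and 0.00596 FPKM, Psmb11, the thymus-specific proteasome subunit, had 8.93 and 0.0316 FPKM, and Prss16 and Ccl25 had control levels of 198 and 161 FPKM and Cre levels of 0.381 and 2.29 FPKM. The other 5, also named after their values were seen, were within 2-fold. The keratin genes Krt5 and Krt14 had 14.1 and 3.32 FPKM as control levels and 6.95 and 2.27 FPKM as Cre levels. Trp63 had 4.78 and 2.49 FPKM, Cldn4 had 6.97 and 5.29 FPKM, and Epcam was above equal levels at 8.10 and 14.1 FPKM. Genes of the cell cycle were 20 of 20 lower, with sums of 1172 and 128 FPKM and a median of -3.21. Top2a, Mki67, Rrm2 and Ccnb2 kept 2.51%, 2.63%, 3.82% and 3.47%, more than Lck or the CD3 chains.

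Markers of macrophages, B cells and mast cells had medians above 0, but that of macrophages was -0.13 when ratios were centred on the fibroblast and endothelial lists. Of 13 measured macrophage genes 1 was lower and 1 higher, with a median of 0.28 and sums of 683 and 803 FPKM. Cd68 was the lower one, at 16.8 and 7.87 FPKM, and Cd14 the higher one, at 7.17 and 15.8 FPKM. Of 5 measured B cell genes 1 was lower and 2 were higher, with a median of 0.51 and sums of 16.5 and 28.0 FPKM. All 6 measured mast cell genes lay above equal levels and 4 were at least 2-fold higher, with sums of 29.4 and 70.7 FPKM. The 11 members used by leukocytes in general were all at least 2-fold lower, and 8 of them kept at least 1 FPKM in the Cre library. Among these 8 were Ptprc, Coro1a, Was and Vav1, at 4.52, 8.28, 1.13 and 1.13 FPKM. Below that level lay Cd4, Rasgrp1 and Ikzf3, at 0.829, 0.558 and 0.338 FPKM. Among NK and cytotoxic genes Gzma had 39.1 and 0.238 FPKM.

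**Figure D4:**
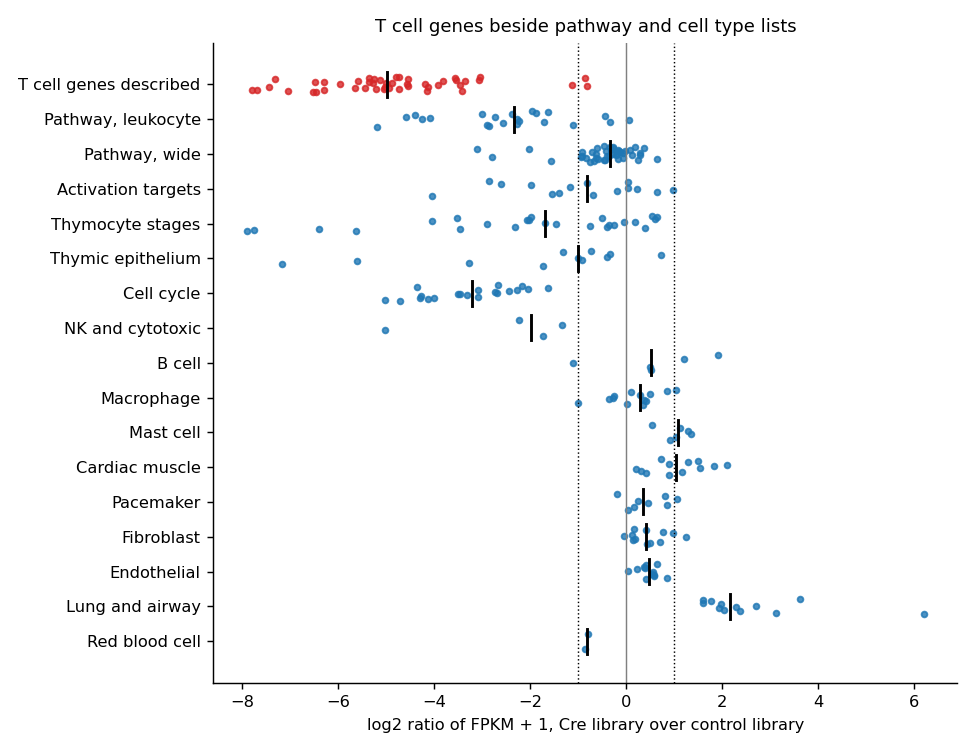
Log2 ratio of FPKM + 1, Cre library over control library, for each of the 46 members (top row) and the measured genes of 16 lists of pathway and cell type genes, with the median as a bar and dotted lines at 2-fold. The members have a median of -4.98, cell cycle genes -3.21, leukocyte pathway genes -2.33 and thymocyte stage genes -1.69, while macrophage, endothelial and fibroblast genes have 0.28, 0.47 and 0.41 (with the ratios centred on the fibroblast and endothelial lists, macrophage genes have -0.13 and fibroblast genes lie close to 0).

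Lists for other tissues had medians above 0, apart from red blood cells and, when ratios were centred on the fibroblast and endothelial lists, pacemaker genes at -0.06 and fibroblast genes, which that centring puts close to 0. Endothelial genes had a median of 0.47 with 0 of 12 past 2-fold, fibroblast genes 0.41 with 1 of 12 higher, cardiac muscle genes 1.03 with 6 of 12 higher, and lung and airway genes 2.16 with 12 of 12 higher. Pacemaker genes had a median of 0.35 with 1 of 8 higher, and the 2 measured red blood cell genes one of -0.82 with 0 past 2-fold. Of these tissues, endothelium uses Ets1 and fibroblasts use Thy1, and the summed levels were 501 and 656 FPKM for the endothelial list and 2439 and 3118 FPKM for the fibroblast list. Ets1 and Thy1 remained at 11.5 and 6.62 FPKM in the Cre library. Which cells these levels came from was not tested.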

How the data were processed

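The table was deposited by the authors with 1 row per gene. Per the submitters' processing notes, the tools were TopHat, Bowtie and Cufflinks and the build was mm9. Tool versions, gene models, use of strand and library scaling were not given in the sources used here. Deposited columns hold FPKM of the control and the Cre library and, per the file headers, the authors' log2 fold change (no pseudocount), test statistic (a score), p-value and q-value. Of 15967 rows, 2 with an incomplete comparison (Myh6 and Nppa) and 31 small-RNA genes were left out. No member is among the 21 symbols that had become dates. The 5 other libraries were not analysed here.

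Genes whose mean over both libraries reached 1 FPKM got a log2 ratio of FPKM + 1, and those past 2-fold were counted, with Python 3.11.15 and pandas 2.3.3. No test was run, with 1 library per genotype. The members and lists were chosen with earlier results of these data known, and nothing here is independent support for those results. Every member is named, with up to 4 genes of the largest absolute ratio per list, of which 1 is not reported here. The value of 1 fragment was the step that best made FPKM times length whole in weak genes (lengths from GENCODE M21), and was checked on simulated data, as was the ratio count. Alternatives were pseudocounts, minimums, scalings and, added after seeing the data, no pseudocount and no shared loci.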

Additional observations from a re-analysis of the deposited data

How the results depend on the processing

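The count of 44 lower members was 43 to 46 under the alternatives with all members, and 41 of 43 without members in a shared locus; 0 were higher under any. With a minimum of 5 FPKM 43 of 45 were lower, and with none 44 of 47. The median of all genes, -0.07, became 0.13 with the same upper quartile and -0.49 when centred on the fibroblast and endothelial lists, and all genes at least 2-fold lower and higher then numbered 1105 and 1342, or 2954 and 321, against 1397 and 815. With that centring the macrophage and pacemaker medians, 0.28 and 0.35, became -0.13 and -0.06. Medians depended on the pseudocount, and 28 of 46 members had a Cre level below 1 FPKM. With 0.1 FPKM they were -6.33 for all members, -8.14 for receptor, -8.76 for coreceptor, -6.41 for accessory, -5.70 for kinase, -7.23 for adaptor, -4.93 for effector and -5.69 for transcription factor genes, -7.23 for T and NK cell and -4.63 for wider genes, -3.14 for leukocyte pathway, -3.64 for NK and -3.91 for cell cycle genes, with 1262 genes higher. With 5 FPKM they were, in that order, -3.28, -4.48, -5.85, -3.25, -1.93, -3.34, -2.27, -3.21, -3.34, -2.44, -1.44, -0.80 and -2.10, with -3.52 for leukocyte members, -0.78 for thymocyte stages, and 805 genes lower and 238 higher. With no pseudocount they were, in the first order, -6.90, -8.55, -8.91, -6.72, -6.06, -7.90, -4.99, -5.73, -8.09, -4.85, -3.30, -4.34 and -4.08, with 1320 higher. Scaling to the same total gave -7.14 for receptor, -4.41 for kinase, -6.04 for adaptor, -4.28 for effector and -6.04 for T and NK cell genes. That total was larger than either library's own, so the pseudocount of 1 weighed less, as with the smaller pseudocount above. The median of all genes was then -0.04. NK genes had -0.83 with no minimum and -5.02 (1 gene) with 5 FPKM, where B cell genes had 1.21 and 449 genes were higher. No paired analysis was possible because each genotype has 1 library. Fragment estimates rest on lengths of an annotation other than the authors'.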
